A study of Mus musculus with 39 samples.

Results

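The genes described here are the matrix metalloproteinases Mmp2, Mmp3, Mmp8, Mmp9, Mmp10, Mmp12, Mmp13 and Mmp14 and the inhibitor Timp1. They were chosen by name: 10 symbols were looked up in the deposited gene count table and 9 had a row among its 39676, of which 28827 held a count in any tumour. The tenth, Mmp19, was not analysed here. Bulk RNA sequencing was performed on 39 subcutaneous AB1-HA tumours in BALB/c mice. AB1-HA is a mouse mesothelioma line that carries influenza haemagglutinin, so every tumour derived from 1 cell line in 1 inbred strain. Mice received PBS (n = 10), tretinoin (all-trans retinoic acid, 5 doses of 5 mg/kg from day 4 by the labels, n = 9), immune checkpoint therapy (ICT, 100 µg of an antibody to CTLA-4 and 100 µg of an antibody to PD-L1 from day 7, n = 10) or tretinoin+ICT (n = 10). The study's text gives other tretinoin doses or numbers of doses for some of its experiments, so the schedule here rests on the labels alone. One tumour per mouse was resected on day 9 and its RNA sequenced whole. In the tretinoin+ICT group the tumour left in place was followed, which labelled 6 mice responders and 4 non-responders; the response was therefore read from another tumour than the one sequenced.

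Matrix metalloproteinases are zinc-dependent endopeptidases that are made as inactive proenzymes and cleave collagens, elastin, proteoglycans and many non-matrix proteins once the propeptide is removed. Tissue inhibitors of metalloproteinases such as Timp1 bind the active site and block it. In tumours these enzymes come from cancer cells, fibroblasts, macrophages, neutrophils and osteoclast-like giant cells, and each member has its own typical source, with Mmp8 stored in neutrophil granules and Mmp12 known as macrophage elastase.

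Total counts ranged from 14033046 to 37951183 per tumour, with a median of 18548168. Of 5 retinoid target genes tested, Cyp26b1, Dhrs3 and Stra6 were called higher in tretinoin than in PBS tumours, and Cyp26b1 and Dhrs3 in tretinoin+ICT tumours. Cyp26b1, which degrades retinoic acid, rose 5.19 on the log2 scale in tretinoin (edgeR adjusted p = 1.99e-16), 3.92 in tretinoin+ICT (adjusted p = 2.10e-11) and also 1.08 in ICT tumours (adjusted p = 0.00527), whose mice had no tretinoin. Stra6, a retinol transporter, differed by -0.00 in tretinoin+ICT against PBS (adjusted p = 0.990). Of 8 mesothelial markers 5 had a row. Pdpn lay between 1058 and 1372 normalised counts in PBS tumours, whereas Upk3b was at 0 in 9 of 10 of them, and Lrrn4 and Wt1 were low (medians of 0.888 and 12.9). The first digit of a tumour's name split each treatment into 2 series that the labels do not explain. Each series held 1 treatment only, so series and treatment cannot be told apart; comparisons of single series are given where they ended a call. ICT tumours 63 and 82, PBS tumour 14 and tretinoin tumour 33 stood apart in T cell or macrophage transcripts, and results that rested on them are given without them.

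Mmp13, Mmp12, Mmp3, Mmp10 and Mmp8 lie in 1 stretch of chromosome 9 (GRCm38, all on the forward strand). From 1 end to the other these are Mmp13 (7272514 to 7283331), Mmp12 (7344381 to 7369499), Mmp3 (7445822 to 7455975), Mmp10 (7502352 to 7510240) and Mmp8 (7558456 to 7568485). This cluster of 10 Mmp genes spans 427.1 kb, from Mmp13 to Mmp7. Mmp2 is on chromosome 8 (92827291 to 92853420), Mmp9 on chromosome 2 (164940780 to 164955850), Mmp14 on chromosome 14 (54431612 to 54445364) and Timp1 on the X chromosome (20870166 to 20874735). All 9 are annotated as protein coding. The 3′ part of Mmp12 overlaps Mmp1b on the opposite strand, and whether counting used strand is not given in the sources used here, but Mmp1b had at most 2 counts in any tumour.

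The 120 bases before the RefSeq start are printed for the cluster genes because neighbours in this stretch moved differently between groups. RefSeq (GRCm38.p6) held a promoter for 7 of the 9 genes, and Mmp2 and Mmp9 had none in the table. Capitals mark TGANTCA, the letters bound by AP-1, a dimer of Fos and Jun proteins. The regions are chr9:7272394-7272513 (Mmp13), chr9:7445702-7445821 (Mmp3), chr9:7502222-7502341 (Mmp10), chr9:7344277-7344396 (Mmp12) and chr9:7558309-7558428 (Mmp8), all on the forward strand.
Mmp13: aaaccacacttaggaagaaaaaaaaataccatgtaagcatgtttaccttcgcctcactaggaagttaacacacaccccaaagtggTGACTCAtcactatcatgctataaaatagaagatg
Mmp3: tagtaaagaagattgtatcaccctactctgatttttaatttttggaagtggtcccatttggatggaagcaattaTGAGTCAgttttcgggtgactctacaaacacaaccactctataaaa
Mmp10: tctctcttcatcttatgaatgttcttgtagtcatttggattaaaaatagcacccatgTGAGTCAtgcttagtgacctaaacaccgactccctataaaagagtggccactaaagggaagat
Mmp12: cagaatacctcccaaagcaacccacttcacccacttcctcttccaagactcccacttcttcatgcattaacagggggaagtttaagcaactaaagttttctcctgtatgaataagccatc
Mmp8: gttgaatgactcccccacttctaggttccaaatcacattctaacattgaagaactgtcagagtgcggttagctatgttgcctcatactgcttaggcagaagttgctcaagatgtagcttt

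The TGANTCA match began 35 bases before the start in Mmp13, 46 in Mmp3 and 63 in Mmp10, whereas the windows of Mmp12 and Mmp8 held none. Nor did those of Mmp14 and Timp1. Of 32851 promoters in the table, 3.41% held the letters in the same 120 bases on either strand. Mmp10 was the only one of the 7 genes with the retinoid receptor half-site AGGTCA in the 300 bases searched. The half-site began 49 bases before its start and did not overlap the AP-1 letters. Of all promoters, 16.3% held it in these 300 bases and 6.91% in the 120 bases before the start. AGGAAG, the core bound by ETS factors, was found once or more within 250 bases before the start in each of the 7 except Mmp10, and 35.4% of all promoters held it in the 300 bases from 250 before to 50 after the start. No promoter of the 7 held TTCNNNGAA, the letters bound by STAT dimers, which 8.3% of promoters held. These matches describe letters and not occupied sites. Mmp13, Mmp3 and Mmp10 share the AP-1 letters, but of these only Mmp13 was called in the comparisons described next.

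A gene was called where edgeR's quasi-likelihood test gave a Benjamini-Hochberg adjusted p below 0.05 over all genes tested and the absolute log2 fold change was at least 1. Values per tumour are normalised counts, that is, counts divided by size factors over all 39 tumours. Under this rule 3 of the 9 genes were called higher in ICT than in PBS tumours, 3 in tretinoin+ICT than in PBS tumours and 3 in tretinoin+ICT than in tretinoin tumours, and each time they were Mmp8, Mmp12 and Mmp13. No member was called lower in any comparison. The share of all genes called was 2.35% of 14155 in ICT against PBS, 5.92% of 14265 in tretinoin+ICT against PBS and 2.08% of 14393 in tretinoin+ICT against tretinoin. These comparisons share their PBS or their tretinoin+ICT tumours and so are not independent. The median log2 fold change of the 9 genes was 0.24 in ICT against PBS (all genes tested -0.02) and 0.01 in tretinoin+ICT against PBS (all genes tested -0.01).

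**Figure D1:**
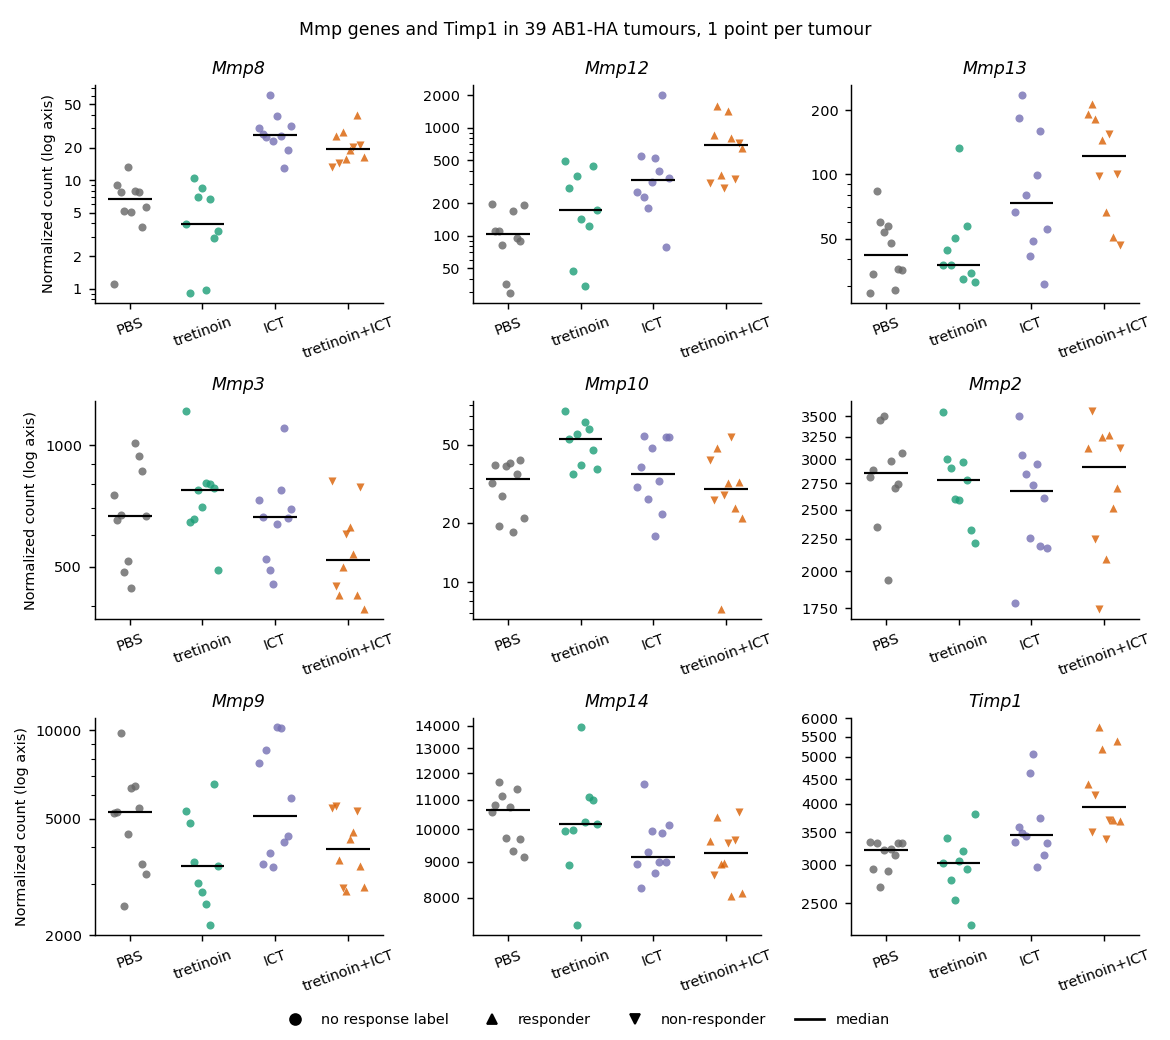
Normalised counts (log axes) of the 9 genes in 39 tumours by treatment group; each point is 1 tumour, upward triangles mark responders, downward triangles non-responders, and bars mark medians. For Mmp8, Mmp12 and Timp1 every tretinoin+ICT tumour lay above every PBS tumour, whereas the groups overlapped for the other 6 genes. The share of all genes without such overlap is not given here, and 50.3% of 14265 genes passed an adjusted p of 0.05 in this comparison.

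The collagenases Mmp8 and Mmp13 cleave the triple helix of fibrillar collagens. Mmp8 was the least abundant member, with 1 to 55 raw counts per tumour. In PBS tumours its lowest, median and highest normalised counts were 1.10, 6.66 and 13.1. Tretinoin tumours held 0.919, 3.92 and 10.4, ICT tumours 12.9, 25.9 and 61.2, and tretinoin+ICT tumours 13.1, 19.6 and 39.6. Thus 9 of 10 ICT tumours and 10 of 10 tretinoin+ICT tumours lay above every PBS tumour, and every tretinoin+ICT tumour also lay above every tretinoin tumour. The rise over PBS was 4.28-fold in ICT tumours (log2 fold change 2.10, SE 0.29, edgeR adjusted p = 0.000140) and 3.10-fold in tretinoin+ICT tumours (1.63, SE 0.27, adjusted p = 4.7e-05). Over tretinoin alone it was 4.22-fold in tretinoin+ICT tumours (2.08, SE 0.32, adjusted p = 0.000431). In tretinoin against PBS the low-count filter of edgeR left Mmp8 out, and it was not called by DESeq2, with no filter or with all 39 tumours in 1 fit. In bulk tumours a change in the number of cells that make a transcript cannot be told apart from a change in RNA per cell, here and for every gene below.

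Mmp13 held 27.9, 41.9 and 83.7 normalised counts (lowest, median and highest) in PBS tumours and 31.4, 37.7 and 133 in tretinoin tumours. In ICT tumours the values were 30.5, 73.3 and 236, and in tretinoin+ICT tumours 46.4, 122 and 213. Only 4 of 10 ICT tumours but 7 of 10 tretinoin+ICT tumours lay above every PBS tumour. Mmp13 rose 2.16-fold in ICT tumours (log2 fold change 1.11, SE 0.34, edgeR adjusted p = 0.0246), 2.70-fold in tretinoin+ICT over PBS tumours (1.43, SE 0.28, adjusted p = 0.000309) and 2.44-fold in tretinoin+ICT over tretinoin tumours (1.29, SE 0.33, adjusted p = 0.0124). The rise in ICT tumours was not called without ICT tumour 63 (0.88, adjusted p = 0.0550) or without ICT tumour 62 (0.97, adjusted p = 0.0437), the 2 highest of the group, without tumours 63 and 82 (0.94, adjusted p = 0.0626) or with no low-count filter (1.11, adjusted p = 0.0552). The call in tretinoin+ICT against PBS held on leaving out each of the 20 tumours in turn (log2 fold change 1.31 to 1.56).

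Mmp12, macrophage elastase, degrades elastin and is made mostly by macrophages. It held 29.6, 103 and 196 normalised counts (lowest, median and highest) in PBS tumours and 34.0, 173 and 496 in tretinoin tumours. In ICT tumours the values were 78.7, 327 and 2018, and in tretinoin+ICT tumours 277, 688 and 1603. In the ICT group 8 of 10 tumours lay above every PBS tumour, and tumour 63 stood far above the next highest ICT tumour (550.5). Mmp12 rose 4.38-fold in ICT tumours (log2 fold change 2.13, SE 0.49, edgeR adjusted p = 0.00706), 6.61-fold in tretinoin+ICT over PBS tumours (2.73, SE 0.40, adjusted p = 2.2e-05) and 3.16-fold in tretinoin+ICT over tretinoin tumours (1.66, SE 0.48, adjusted p = 0.0214). Without ICT tumour 63 the log2 fold change in ICT against PBS was 1.52 (adjusted p = 0.0102), below that of Mmp8 (1.92). In tretinoin tumours Mmp12 was 1.07 higher on the log2 scale than in PBS tumours (SE 0.46), which did not pass (adjusted p = 0.109), and 4 of 9 tretinoin tumours lay above every PBS tumour.

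Series of tumour names bore on these calls. In ICT against PBS none of the 3 genes was called with series 6 against either PBS series (Mmp8 2.16 and 2.30 on the log2 scale, adjusted p = 0.127 and 0.183), whereas with series 8 Mmp8 and Mmp12 were called and Mmp13 was not (0.87 and 1.05, adjusted p = 0.144 and 0.0831). Few genes of any kind were called with series 6, namely 9 of 14195 against PBS series 1 and 5 of 14253 against PBS series 5. With series 8 these counts were 100 of 14177 and 294 of 14180. In tretinoin+ICT against tretinoin none of the 3 members was called with tretinoin series 3, and with series 7 either 2 or 3 were. Of all genes, 32 and 23 of 14410 were called with series 3. With series 7 it was 268 of 14535 and 293 of 14520. In tretinoin+ICT against PBS all 3 genes were called in each of the 4 pairs of series, in which 735 to 968 genes were called. The fold changes of Mmp8, Mmp12 and Mmp13 were positive in every such pair of these 3 comparisons, each with 4 or 5 tumours a side.

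**Figure D2:**
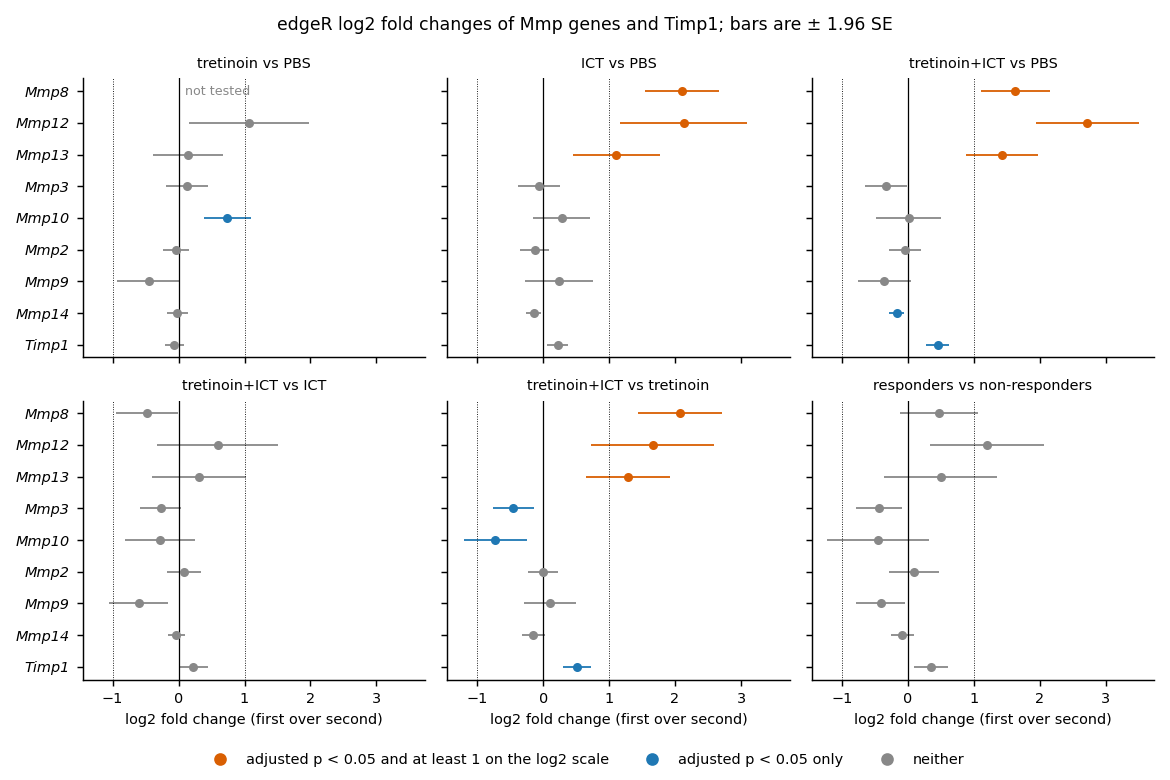
Log2 fold change (x axis) of each gene in 6 comparisons. Points are edgeR estimates, and bars are nominal 95% intervals from the standard errors by a normal approximation. The bars are narrower than the edgeR test implies. For Mmp3 in tretinoin+ICT against PBS the bar ran from -0.651 to -0.0048, with an unadjusted edgeR p of 0.0602. Mmp8, Mmp12 and Mmp13 lay above 1 in ICT against PBS, in tretinoin+ICT against PBS and in tretinoin+ICT against tretinoin. No gene was called in the comparison of responders with non-responders.

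Mmp8, Mmp12 and Mmp13 went with the summed neutrophil markers over the 39 tumours (Pearson's r = 0.759, 0.787 and 0.791). The r was 0.576, 0.796 and 0.749 with macrophage markers, and 0.729, 0.702 and 0.678 with mesothelial markers. With fibroblast markers it was -0.533, -0.635 and -0.634. The mesothelial sum was 1071 to 1391 normalised counts in PBS tumours and came almost wholly from Pdpn, whose range is given above. Its r therefore describes mainly that gene. Of 10 neutrophil markers 9 had a row and 6 were tested, of which 5 (Csf3r, Cxcr2, Lcn2, S100a8 and S100a9) were called higher in ICT and in tretinoin+ICT than in PBS tumours. Cxcr2, a chemokine receptor of neutrophils, rose 1.34 on the log2 scale in ICT tumours (edgeR adjusted p = 0.00183) and 1.61 in tretinoin+ICT tumours (adjusted p = 1.0e-05). The summed level of the 9 markers was 941 to 2346 normalised counts in PBS, 1100 to 3322 in tretinoin, 1391 to 5844 in ICT and 2017 to 6305 in tretinoin+ICT tumours. Ngp, Camp and Ly6g, which define maturing and mature neutrophils, were near 0, with Ngp at a median of 0 in every treatment group, Camp at 6 counts or fewer and Ly6g at 8 counts or fewer in any tumour. Of 7 macrophage markers 6 had a row. All 6 passed an adjusted p of 0.05 upwards in ICT and in tretinoin+ICT against PBS, none by a log2 fold change of 1, and 3 did so in tretinoin against PBS. Their summed level was 41913 to 65252 in PBS, 46126 to 97256 in tretinoin, 44852 to 97930 in ICT and 62127 to 91249 in tretinoin+ICT tumours. The part of neutrophils, macrophages or any other cell type in the rises of Mmp8, Mmp12 and Mmp13 was not tested.

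The stromelysins Mmp3 and Mmp10 cleave proteoglycans and activate other proenzymes. They lie next to the genes above, and neither was called in any comparison. Mmp10 held 17.9, 33.6 and 41.8 normalised counts (lowest, median and highest) in PBS tumours, 35.3, 53.3 and 74.1 in tretinoin, 17.2, 35.6 and 55.6 in ICT and 7.30, 29.8 and 55.1 in tretinoin+ICT tumours. All 9 tretinoin tumours lay above the PBS median and 6 of 9 above every PBS tumour. Mmp10 was the only member to pass an adjusted p of 0.05 in tretinoin against PBS, with a rise of 1.67-fold (log2 fold change 0.74, SE 0.18, edgeR adjusted p = 0.00791), against 20.4% of the 14340 genes tested; 1.62% of genes were called and no member was. Against the 2 PBS series, the rise was 0.87 and 0.94 in tretinoin series 3 (adjusted p = 0.0461 and 0.0327) and 0.45 and 0.51 in series 7 (adjusted p = 0.373 and 0.308). In tretinoin+ICT tumours Mmp10 was 1.65-fold lower than in tretinoin tumours (log2 fold change -0.72, SE 0.24, adjusted p = 0.0407), where 21.4% of genes passed, and 7 of 10 tumours lay below every tretinoin tumour. It did not pass in any of the 4 pairs of series (-0.93 to -0.44, adjusted p = 0.181 to 0.450) or with no low-count filter (adjusted p = 0.0601), and leaving out 1 tumour gave adjusted p values up to 0.0756. Against PBS it differed by 0.01 (nominal 95% interval -0.47 to 0.50).

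The difference between both effects was addressed by the tretinoin by ICT interaction over all 39 tumours. For Mmp10 the interaction was -1.01 on the log2 scale (SE 0.34), which did not pass over all genes (edgeR adjusted p = 0.259). No member passed the interaction, which 0.307% of 14977 genes did. At an unadjusted p below 0.05 there were 2 members (Mmp10 and Timp1) and 1415 genes, and DESeq2 gave no member either. The effect of tretinoin on Mmp10 is therefore not shown to differ with ICT.

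Mmp3 was far more abundant than Mmp10 and moved little. It held 445, 670 and 1014 normalised counts (lowest, median and highest) in PBS, 492.8, 773 and 1213.5 in tretinoin, 453, 663 and 1102 in ICT and 394, 520 and 815 in tretinoin+ICT tumours. Although the groups overlapped widely, Mmp3 was 1.37-fold lower in tretinoin+ICT than in tretinoin tumours (log2 fold change -0.45, SE 0.16, edgeR adjusted p = 0.0451). It did not pass in any of the 4 pairs of series (-0.58 to -0.30, adjusted p = 0.241 to 0.314) or with no low-count filter (adjusted p = 0.0953), and leaving out 1 tumour gave adjusted p values up to 0.0853. Against PBS the difference was -0.33 and did not pass (adjusted p = 0.104).

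**Figure D3:**
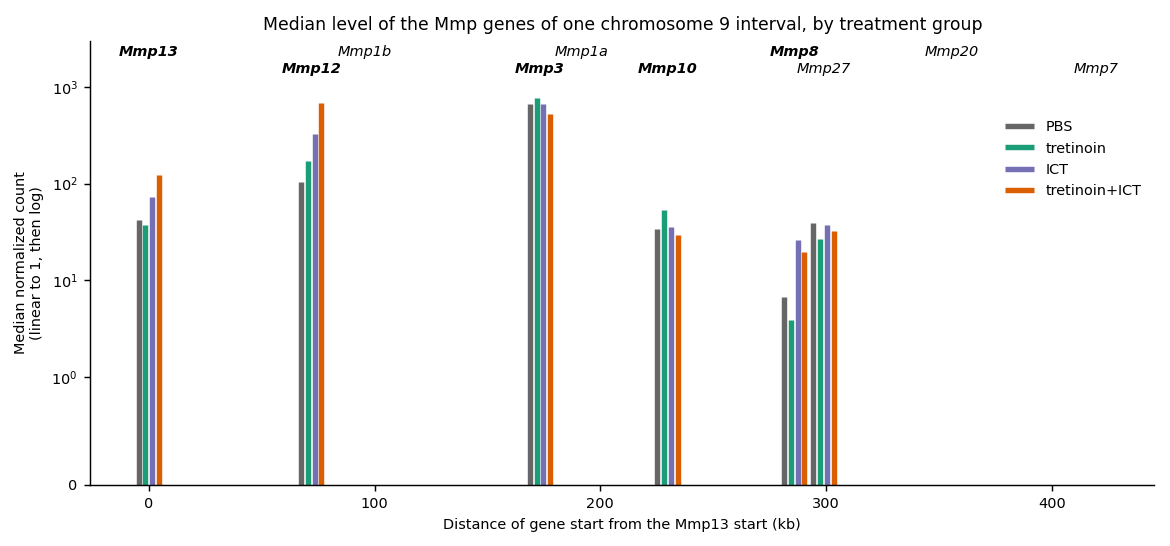
Median normalised count (y axis, linear to 1 and logarithmic above) of the 10 Mmp genes of the chromosome 9 cluster against the distance of each gene start from that of Mmp13 (kb), with 1 bar per treatment group. Mmp13, Mmp12 and Mmp8 were higher in ICT and tretinoin+ICT than in PBS tumours, while Mmp3 and Mmp10 between them were not called.

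The genes that rose were thus interleaved with genes that did not. Mmp27, the next gene after Mmp8, held medians of 38.98, 27.0, 37.0 and 32.6 normalised counts in PBS, tretinoin, ICT and tretinoin+ICT tumours and passed in no comparison. The other 4 genes of the cluster, Mmp1a, Mmp1b, Mmp20 and Mmp7, had at most 3 counts in any tumour.

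The gelatinases Mmp2 and Mmp9 degrade denatured collagen and basement membrane collagen. Mmp9 held 2520, 5251 and 9793 normalised counts (lowest, median and highest) in PBS, 2159, 3438 and 6560 in tretinoin, 3405, 5116 and 10234 in ICT and 2829, 3933 and 5530 in tretinoin+ICT tumours. The 4 ranges overlapped. Mmp9 did not pass in tretinoin against PBS (log2 fold change -0.45, SE 0.25, edgeR adjusted p = 0.195), in tretinoin+ICT against PBS (-0.35, adjusted p = 0.162) or in tretinoin+ICT against ICT (-0.60, SE 0.23, adjusted p = 0.179). ICT tumours 63 and 82 held the lowest Mmp9 counts of their group (3405 and 3505), and leaving them out was chosen after the data were seen. Without them the log2 fold change in tretinoin+ICT against ICT was -0.76 and passed (adjusted p = 0.0281). Without tumour 63 alone it was -0.68 (adjusted p = 0.0686). Over all genes, 250 of 14322 were called without both tumours and 123 of 14266 without tumour 63. With all tumours, 0.394% of 14202 genes were called in tretinoin+ICT against ICT, 1.99% passed the adjusted p, and no member did either. Mmp9 was there the only member at an unadjusted p below 0.05 (p = 0.0144 in edgeR, with 2571 genes), and DESeq2 called none.

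Mmp9 also marks osteoclasts and osteoclast-like giant cells. Of 6 osteoclast-like markers 5 had a row and 4 were tested; 3 (Acp5, Atp6v0d2 and Ctsk) were called lower in tretinoin than in PBS tumours, all 4 in tretinoin+ICT than in PBS tumours, and none in ICT. Ctsk, the collagen-degrading cathepsin of osteoclasts, fell by 1.08 on the log2 scale in tretinoin tumours (edgeR adjusted p = 0.0300). The summed level of the 5 markers was 4322 to 20138 normalised counts in PBS, 1842 to 7912 in tretinoin, 3527 to 17901 in ICT and 2016 to 7341 in tretinoin+ICT tumours, with Calcr at 0 in 2 tretinoin+ICT tumours. The part of these cells in the levels of Mmp9 was not tested.

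Mmp2, which is made mainly by fibroblasts, held 1937, 2849 and 3512 normalised counts (lowest, median and highest) in PBS, 2215, 2786 and 3557 in tretinoin, 1782, 2671 and 3505 in ICT and 1745, 2911 and 3568 in tretinoin+ICT tumours. The 4 ranges nearly coincided. Its largest absolute log2 fold change between treatment groups was -0.13, in ICT against PBS (nominal 95% interval -0.35 to 0.10, edgeR adjusted p = 0.436).

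Mmp14 is a membrane-anchored metalloproteinase that activates pro-Mmp2 at the cell surface. It was among the most abundant members, with 9137, 10660 and 11672 normalised counts (lowest, median and highest) in PBS, 7319, 10174 and 13911 in tretinoin, 8261, 9135 and 11565 in ICT and 8061, 9268 and 10572 in tretinoin+ICT tumours. All 10 tretinoin+ICT tumours lay below the PBS median and 5 lay below every PBS tumour. The fall was small, 1.12-fold in tretinoin+ICT against PBS (log2 fold change -0.17, SE 0.06, edgeR adjusted p = 0.0188), a comparison in which 50.3% of genes passed. It did not pass in any of the 4 pairs of series (-0.21 to -0.13, adjusted p = 0.0671 to 0.257) or with all 39 tumours in 1 fit (adjusted p = 0.0545). In ICT against PBS, where 21.2% passed, it was -0.14 (adjusted p = 0.0896). Of the 6 fibroblast markers with a row 2 passed downwards in each of these comparisons, and their part was not tested.

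Timp1 inhibits most secreted matrix metalloproteinases and had the narrowest spread among PBS tumours, a coefficient of variation of 0.0711. It held 2699, 3221 and 3338 normalised counts (lowest, median and highest) in PBS, 2250, 3030 and 3809 in tretinoin, 2965, 3458 and 5076 in ICT and 3393, 3941 and 5744 in tretinoin+ICT tumours. Every tretinoin+ICT tumour lay above every PBS tumour, and 6 of 10 ICT tumours did. Timp1 rose 1.37-fold in tretinoin+ICT over PBS tumours (log2 fold change 0.45, SE 0.09, edgeR adjusted p = 0.000331) and 1.43-fold over tretinoin tumours (0.52, SE 0.11, adjusted p = 0.0044), both below the fold minimum for a call. In these comparisons 50.3% and 21.4% of all genes tested passed the adjusted p, and the share of genes without overlap is not given here. Against tretinoin series 3 alone the rise did not pass (0.34 and 0.51, adjusted p = 0.265 and 0.199). In ICT against PBS the difference was 0.22 (SE 0.08) and did not pass (adjusted p = 0.0579). In tretinoin against PBS it was -0.07 (nominal 95% interval -0.21 to 0.08).

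Compared per kilobase of the longest coding transcript, the order of the levels in PBS tumours was Timp1, Mmp14, Mmp9, Mmp2, Mmp3, Mmp12, Mmp10, Mmp13 and Mmp8. Timp1 had 3561 ± 253 and Mmp14 3219 ± 277 normalised counts per kilobase (SD, n = 10). These neighbours overlapped, and Mmp14 stood at 1749 when divided by the union of its exons. Mmp9 had 1645 ± 652 and overlapped Mmp2 (924 ± 153), which lay above Mmp3 (389 ± 107) in every PBS tumour. A wide step separated Mmp3 from Mmp12 (30.8 ± 16.3), Mmp10 (18.2 ± 5.38) and Mmp13 (17.4 ± 6.56), whose ranges overlapped one another. By the union of its exons Mmp12 stood at 15.4, below Mmp10 and Mmp13. Mmp8 was lowest (2.74 ± 1.35). In tretinoin+ICT tumours Mmp12 stood at 204 ± 129 (101.5 by the union of its exons) and Mmp13 at 46.7 ± 22.7 per kilobase, and Mmp13 had passed Mmp10 (18.3 ± 8.08) in the order, as it also had in ICT tumours. In tretinoin+ICT tumours Mmp12 remained below Mmp3 (309 ± 83.3) on average.

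Responders and non-responders of the tretinoin+ICT group were compared in 6 against 4 tumours. No member was called and none passed an adjusted p of 0.05 in edgeR, and the share of all 14604 genes that were called or passed was 0%. At an unadjusted p below 0.05 there were 3302 genes and 3 members (Mmp3, Mmp12 and Timp1); DESeq2 called 121 genes and no member. Mmp12 held 365, 831 and 1603 normalised counts (lowest, median and highest) in responders, whereas the 4 non-responders held 277, 310, 335 and 728. All 6 responders lay above the median of the non-responders and 4 above every one of them. The log2 fold change was 1.21 (SE 0.44, edgeR adjusted p = 0.150). A two-sided exact permutation test over 210 splits gave p = 0.0476 (0.235 adjusted over 14604 genes). Of these genes, 2964 had a permutation p below 0.05, and the smallest p possible is 0.00476. Within name series 2 the responders held 801 and 1603 and the non-responders 277, 310 and 335, whereas within series 4 the responders held 365, 648, 862 and 1419 and the only non-responder 728. With name series as a term in the fit 0 members passed. Leaving out each tumour in turn gave 0.996 to 1.63 (adjusted p = 0.0541 to 0.359).

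Timp1 was 0.35 higher on the log2 scale in responders (SE 0.13, edgeR adjusted p = 0.154), with 3393, 3505, 3705 and 4176 normalised counts in non-responders and a median of 4792 in responders. Mmp3 was -0.44 (SE 0.18, adjusted p = 0.174). Mmp9 was -0.41 (SE 0.19, adjusted p = 0.227), with 3 of 4 non-responders (5325, 5449 and 5530) above every responder (2829 to 4496) and the other at 2907. Among these tumours the summed macrophage markers were 77227 to 91249 normalised counts in responders and 62127 to 73042 in non-responders, which did not overlap. The osteoclast-like markers were 2016 to 3999 and 2451 to 7341. The share of all genes without such overlap is not given here. None of the macrophage or osteoclast-like markers tested was called or passed the adjusted p in this comparison. The part of these cells in the differences of Mmp12 and Mmp9 was not tested.

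In tretinoin+ICT against ICT, which asks what tretinoin added to ICT, Mmp12 was 0.59 higher on the log2 scale (SE 0.47, edgeR adjusted p = 0.489) and Mmp8 0.47 lower (log2 fold change -0.47, SE 0.24, adjusted p = 0.293). The value for Mmp12 rested on ICT tumour 63. Tumour 63 was the highest ICT tumour for Mmp12, and leaving it out was chosen after the data were seen. Without tumours 63 and 82 the log2 fold change of Mmp12 was 1.32 and was called (adjusted p = 0.0341). Without tumour 63 alone it was 1.203 (adjusted p = 0.0619). Calls over all genes rose as well, from 56 of 14202 with all tumours to 250 of 14322 without both. Without tumour 63 alone, 123 of 14266 genes were called.

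For each gene, the 3 genes with the most similar levels over the 39 tumours were ranked by Pearson's r of log2 CPM (counts scaled to library size) among all genes kept by the filter. These correlations are across tumours that share treatment groups, libraries and depth, and are descriptions. Mmp9 was most like Ocstamp (r = 0.924), Ctsk (0.910) and Acp5 (0.908), all genes of multinucleated osteoclasts. Centred within treatment groups, the values were 0.926, 0.935 and 0.926. With the summed neutrophil markers Mmp9 had an r of 0.0409.

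Mmp12 was most like the chemokine gene Ccl9 (r = 0.869), Il13ra2, a decoy receptor of interleukin 13 (0.864), and Adam8, a metalloproteinase of myeloid cells (0.861). Mmp13 was most like Timp1 itself (0.840), Ttc39c (0.835) and Adam8 (0.8345). Mmp8 was most like Il1r2 (0.850), Slc10a6 (0.847) and Cxcr2 (0.843). After centring within groups the values of Mmp8 were 0.561, 0.437 and 0.574, and none of the 3 genes remained among its closest 3.

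Mmp14 was most like the collagen gene Col5a1 (r = 0.852), Dnm1 (0.846) and Pias3 (0.841). Mmp2 was most like Bicc1 (0.857), Gxylt2 (0.843) and Cygb (0.832), and Mmp3 like Ace (0.736), Col14a1 (0.723) and Plat (0.691). Mmp10 had no close partner, with Tgif1 (0.5995), Zmiz1 (0.598) and Tgif2 (0.595) the nearest. Timp1 was most like Hilpda (0.894), Lgals3 (0.891) and Arpc3 (0.889).

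Among the 9 genes themselves, Mmp12 and Mmp13 had an r of 0.764 over the 39 tumours, Mmp12 and Timp1 0.741 and Mmp8 and Mmp12 0.638, and centring within groups gave 0.616, 0.590 and 0.417. Mmp2 went with Mmp3 (0.604) and Mmp14 (0.530) and against Mmp9 (-0.4255). The members thus fell into a set that rose with ICT, a set of Mmp2, Mmp3 and Mmp14, and Mmp9 and Mmp10, whose highest r with another member was 0.202 (Mmp8) and 0.2795 (Mmp3).

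**Figure D4:**
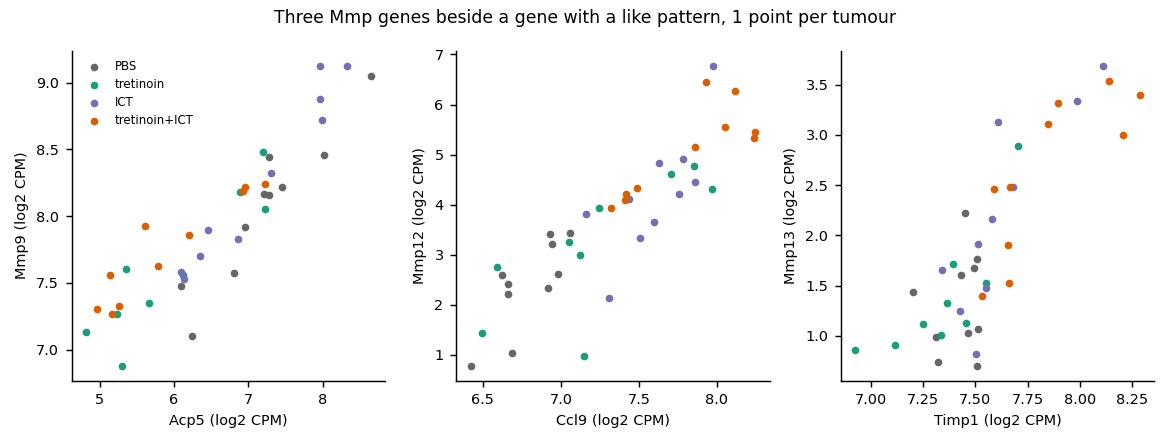
Log2 CPM of Mmp9 against Acp5 (left), Mmp12 against Ccl9 (middle) and Mmp13 against Timp1 (right) in 39 tumours, 1 point per tumour and 1 colour per treatment group. Mmp9 followed Acp5 within every group (r = 0.926 after centring within groups). Every tretinoin+ICT tumour lay above every PBS tumour for Mmp12 but not for Mmp13, and the highest value of both was that of ICT tumour 63 (6.78 and 3.69).

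Of the remaining cell type lists, none of 5 T cell and none of 4 endothelial markers was called in any comparison, and nor was Ptprc, the pan-leukocyte marker. Wt1, one of the mesothelial markers, was called higher in tretinoin (1.12 on the log2 scale), ICT (1.40) and tretinoin+ICT tumours (2.39) than in PBS tumours.

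Other genes of metalloproteinase control were counted in lists. Of 14 other Mmp genes 13 had a row, 5 were tested and none was called in any of the 7 comparisons. Of 9 other inhibitors 8 had a row. A2m, a plasma protein that traps proteinases, was called higher in tretinoin+ICT than in PBS tumours (log2 fold change 1.79, SE 0.35, edgeR adjusted p = 0.000278), from 6.64 ± 4.28 to 23.1 ± 11.4 normalised counts (SD, n = 10), and was the only one called. Timp3, chosen after its values were seen, rose 0.97 in tretinoin+ICT over PBS tumours (SE 0.13, adjusted p = 7.70e-06) and 0.51 in tretinoin tumours (SE 0.15, adjusted p = 0.0231), below the minimum for a call, whereas Timp2 differed by -0.04 and 0.05 (adjusted p = 0.597 and 0.679).

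Of 14 activators and receptors 10 were tested. Lcn2, also counted among the neutrophil markers above, was called higher in ICT (log2 fold change 1.48, edgeR adjusted p = 0.0179) and tretinoin+ICT tumours (2.31, adjusted p = 0.000220) than in PBS tumours. Of 19 Adamts genes 15 had a row and 9 were tested. Adamts13, which cleaves von Willebrand factor, was called lower in tretinoin+ICT than in PBS tumours (-1.03, SE 0.22, adjusted p = 0.000690). Adamts14, a procollagen peptidase, rose 0.75 in tretinoin tumours (SE 0.07, adjusted p = 3.41e-07) and was the only gene of these lists apart from the retinoid controls to pass the interaction (-0.64, adjusted p = 0.00173).

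Of 7 AP-1 subunits 6 had a row and were tested. Fos was called lower in tretinoin than in PBS tumours (log2 fold change -1.10, SE 0.13, edgeR adjusted p = 3.70e-06), from 877 ± 159 normalised counts (SD, n = 10) to 409 ± 85.3 (SD, n = 9). Of the 6 subunits, 1 passed the adjusted p upwards and 2 downwards in tretinoin, and 4 upwards in tretinoin+ICT, against PBS. In tretinoin against PBS, the genes that hold the AP-1 letters had log2 fold changes of 0.12 (Mmp3), 0.14 (Mmp13) and 0.74 (Mmp10). The part of AP-1 in these values was not tested. Fosb was called higher in tretinoin+ICT than in PBS tumours (1.69, adjusted p = 0.0223), but 1 non-responder held 3551 normalised counts against a group median of 201.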

How the data were processed

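Whole-tumour RNA was sequenced as 100 bp single-end reads. Per the labels and the study's methods, the authors demultiplexed with bcl2fastq 2.20.0.422, aligned with HISAT2 2.0.4 to a build they name mm11 and counted reads per gene with SummarizeOverlaps; the deposited values are raw counts per gene, not normalised. Groups were taken from the labels. The genes and gene lists were chosen with earlier results of these data known.

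Counts were tested per comparison with edgeR 4.0.16 (TMM, filterByExpr, robust quasi-likelihood test, R 4.3.3), with standard errors taken as the log2 fold change over the square root of F. Intervals called nominal were drawn from these standard errors with the normal distribution, which makes them narrower than the edgeR test implies. Levels are counts divided by DESeq2 1.42.0 size factors over all 39 tumours. Likeness used log2 CPM with a prior count of 2. Tests were checked on simulated counts. Named with values were all members, at most 4 called genes per list and the 3 genes most like each member; others are said to be chosen after their values were seen. A called gene of 1 list is not reported here. Coordinates and lengths are from GENCODE M21 (GRCm38), in which the identifier version of Mmp14 differed from the count table. Nothing in the labels pairs tumours across groups, and p-values measure the spread between tumours. Alternatives were DESeq2, its size factors in edgeR, other filters, all tumours in 1 fit, no minimum fold, single name series and responders or non-responders left out in turn; leaving out each tumour in the other comparisons, ICT tumours 63 and 82, or PBS tumour 14 and tretinoin tumour 33 was added after seeing the data. Mmp19 was not analysed here.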

Additional observations from a re-analysis of the deposited data

Results flagged for a closer look

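Among 54 groups of values examined (each gene in each treatment group and response class), 3 held a tumour far from the others of its group, where chance alone gives about 1 in 20. Mmp9 in the 4 non-responders was lowest in tumour 44, at 2907 normalised counts, and the gap to the next tumour took 0.941 of the group's range on the log2 scale. Mmp10 in tretinoin+ICT tumours was lowest in tumour 24, a responder, at 7.30 normalised counts (0.514 of the range). Mmp13 in tretinoin tumours was highest in tumour 33, at 133 normalised counts (0.584 of the range).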

How the results depend on the processing

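With no minimum fold change, the number of the 9 genes called was 1 in tretinoin against PBS, where 20.4% of all genes passed. It was 5 in tretinoin+ICT against PBS (50.3% of all genes) and 6 in tretinoin+ICT against tretinoin (21.4%). With the minimum kept, the number was 0 in ICT against PBS with series 6 against either PBS series (9 and 5 of all genes called). In tretinoin+ICT against tretinoin it was 0 with either series against series 3 (32 and 23 of all genes called). Without ICT tumours 63 and 82 it was 1 (Mmp12) in tretinoin+ICT against ICT, where 250 of 14322 genes were called. Leaving out each tumour in turn, it was 2 to 3 in ICT against PBS. A filter of at least 10 counts in every tumour left out Mmp8 where PBS or tretinoin tumours entered and Mmp10 where tretinoin+ICT tumours did. DESeq2 gave the same number of called members in all 7 comparisons. The causes were not tested.

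Of the log2 fold changes, these turned sign, none of them called. In tretinoin against PBS, Mmp14 was 0.0045 and 0.039 (series 7 against 1 and 5), Timp1 0.0067 and 0.035 (3 against 1 and 5), Mmp2 0.057 (3 against 1), Mmp3 -0.18 (7 against 5) and Mmp13 -0.41 and -0.23 (7 against 1 and 5) and -0.16 (without PBS tumour 14 and tretinoin tumour 33). In ICT against PBS, Mmp9 was -0.027 (8 against 1) and Mmp3 0.24 and 0.013 (6 and 8 against 1). In tretinoin+ICT against PBS, Mmp9 was 0.18 (2 against 5), Mmp2 0.086 (4 against 1) and Mmp10 -0.050 (2 against 1). Against ICT, Mmp14 was 0.012 (4 against 6) and Mmp2 -0.0041 (2 against 8). Against tretinoin, Mmp9 was -0.051 and -0.28 and Mmp2 0.015 and 0.089 (4 against 3 and 7). In the interaction without ICT tumours 63 and 82, Mmp8 was 0.16 and Mmp12 0.26. Leaving out 1 tumour gave, in tretinoin against PBS, -0.084 to 0.030 for Mmp14, -0.088 to 0.0020 for Mmp2 and -0.18 to 0.28 for Mmp13; in ICT against PBS, -0.16 to 0.017 for Mmp3; in tretinoin+ICT against PBS, -0.092 to 0.018 for Mmp2 and -0.11 to 0.13 for Mmp10; against ICT, -0.057 to 0.00051 for Mmp14; against tretinoin, -0.050 to 0.055 for Mmp2; and in responders against non-responders, -0.085 to 0.23 for Mmp2. The lists of 3 most similar genes shared fewer than 2 genes with those given in 10 of 18 cases under Spearman's rho or centring within groups. Depth limits Mmp8 most, at 1 to 17 raw counts in PBS tumours.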
